A study of Mus musculus with 24 samples.

Results

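The dystrophin glycoprotein complex of whole *M. gastrocnemius* was described at the mRNA level from 8 genes: *Dmd* (dystrophin), *Utrn* (utrophin), *Dag1* (dystroglycan), *Sgca*, *Sgcb* and *Sgcd* (alpha-, beta- and delta-sarcoglycan), *Dtna* (alpha-dystrobrevin) and *Sspn* (sarcospan). The probes taken were all non-control probes of the array whose gene name was 1 of the 8, a set of genes proposed with earlier results of these data known, which gave 19 of 55681 probes. Of these 19 probes, 10 probes of 6 genes had a mean Cy5 signal over 2 times the local background and were tested together with all 14503 probes that passed this filter. The tested probes were 1 of 5 for *Dmd*, 1 of 1 for *Dag1*, 2 of 2 for *Sgca*, 3 of 3 for *Sgcb*, 2 of 3 for *Sgcd* and 1 of 1 for *Sspn*. Neither of the 2 probes for *Utrn*, nor of the 2 for *Dtna*, passed the filter.

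Male C57BL/6JOlaHsd mice, which were 10 weeks old at arrival, ate a low-fat diet (10% of energy from fat) for 3 weeks and a high-fat diet (40%) for 6 weeks. They were then fasted and kept for 6 h at 12% oxygen (Hypox, n = 12) or at 20.9% oxygen (Norm, n = 12), so both groups were high-fat fed and fasted and no fed or lean group was compared here. RNA of each mouse was labelled with Cy5 and hybridised on an 8 × 60 K array against a Cy3-labelled pool of all samples. Values below are log2 ratios of mouse over pool after loess normalisation, and a fold change is the Hypox mean minus the Norm mean on that log2 scale. The 24 arrays lay on 6 slides with 2 Norm and 2 Hypox arrays each.

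Dystrophin links the actin cytoskeleton under the muscle fibre membrane to dystroglycan, which spans the membrane and binds laminin in the basement membrane through sugar chains on its outer subunit. The sarcoglycans and sarcospan form a membrane subcomplex that stabilises this link, and dystrobrevin, on the inner side, carries syntrophins that hold signalling proteins such as neuronal nitric oxide synthase. Loss of dystrophin causes Duchenne muscular dystrophy, loss of a sarcoglycan causes limb-girdle muscular dystrophy, and utrophin, a close relative of dystrophin, is concentrated at the neuromuscular junction in adult muscle.

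The probes are 60 bases long, and 4 of them are shown because they fix which stretch of the very long dystrophin and utrophin messages each value stands for. They were read from the array files, run 5′ to 3′ and are placed on mouse build mm9. The first 3 belong to the *Dmd* transcript NM_007868 and lie on the plus strand, at chrX:80596782-80596841 (from base 450), chrX:81132417-81132476 (from base 4942) and chrX:82389391-82389450 (from base 10335). The last belongs to *Utrn* and lies on the minus strand at chr10:12221228-12221287 (from base 7910). Exons were not assigned, since no annotation of this build was used here.
Dmd base 450: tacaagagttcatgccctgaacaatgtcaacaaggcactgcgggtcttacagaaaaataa
Dmd base 4942: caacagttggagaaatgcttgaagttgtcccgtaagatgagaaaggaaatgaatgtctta
Dmd base 10335: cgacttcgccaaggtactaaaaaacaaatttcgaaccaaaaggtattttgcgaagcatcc
Utrn base 7910: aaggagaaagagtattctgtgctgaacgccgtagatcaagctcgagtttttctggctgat

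Signal differed more between slides than between groups. The mean Cy5 signal of an array ran from 58.3 to 933 across Norm mice (median 341) and 63.5 to 1014 across Hypox mice (median 368), with slide 1 (58.3 to 102) and slide 4 (124 to 197) the dimmest. No member probe was saturated. All 8 skeletal muscle markers (*Acta1*, *Ckm*, *Mb*, *Myh4*, *Myh1*, *Myh2*, *Des*, *Tnnt3*) were well above background on all 24 arrays, and none had an unadjusted p under 0.05. Their calls turned with the setting. In Hypox 2 were lower with slide as a block, a replicate block or array weights, and 2 were higher with processed signals. With Cy5 alone 1 was higher and 1 lower, and 1 was higher without slides 1 and 4. Of all probes tested, 15.7% passed that threshold with slide as a block, 14.2% with a replicate block and 20.4% with array weights. The share was 13.8% with processed signals, 9.22% with Cy5 alone and 12.7% without slides 1 and 4. The median fold change of the 8 muscle markers was -0.15 here, 0.34 with median centring in place of loess and 0.43 in the deposited values.

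Of the 10 member probes tested, 1 had an unadjusted p under 0.05 (*Dmd*, lower in Hypox), the threshold the study used, and 0 had an adjusted p under 0.05 (limma, Benjamini-Hochberg over all 14503 probes). Over all probes tested, 13.8% had an unadjusted p under 0.05, 6.41% with a lower and 7.41% with a higher mean in Hypox, and 0.931% had an adjusted p under 0.05. The share of member probes was thus near the background. The median fold change was -0.028 over the 10 member probes and 0.022 over all probes tested. The mean was higher in Hypox for 3 probes and lower for 7, a split that became 5 and 5 with median centring and 6 and 4 in the authors' deposited values. Without slides 1 and 4, again 1 of the 10 had an unadjusted p under 0.05, and 12.7% of all probes tested did.

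**Figure D1:**
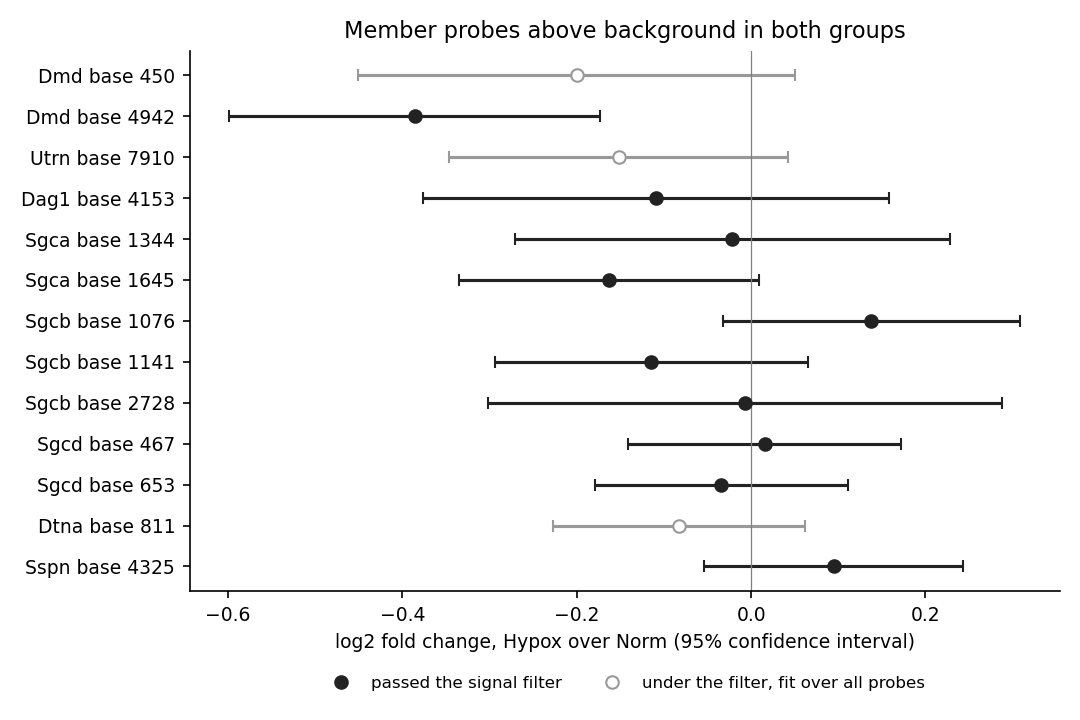
Log2 fold change (Hypox over Norm, horizontal axis) with its 95% confidence interval for the 13 member probes that were well above background on at least 1 array of each group. Filled points passed the signal filter and open points did not, and only the interval of the Dmd probe at base 4942 lies entirely on one side of 0.

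*Dmd* encodes dystrophin, the rod that ties actin to dystroglycan. In Norm, the log2 ratio of its probe at base 4942 had a lowest value of -0.35, a median of 0.25 and a highest value of 0.62. In Hypox it had a lowest value of -0.48, a median of -0.22 and a highest value of 0.25. The groups overlapped, but 11 of the 12 Hypox mice lay below the Norm median, and 2 of them lay below every Norm mouse. The Norm mean was 0.20 ± 0.30 and the Hypox mean was -0.18 ± 0.21 (SD, n = 12 each). This is a fold change of -0.39 (SE 0.10, 95% confidence interval -0.60 to -0.17), or a level 1.31-fold lower in Hypox with an offset of 50 added to the signals. With processed signals in place of normexp and loess, and no offset added, the fold change was -0.66 (limma p 0.0150). The size of the difference thus depends on the processing. The unadjusted p of limma was 0.000919 and the adjusted p was 0.0707. Over the alternative settings the adjusted p ranged from 0.0146, with arrays weighted by quality, to 0.830, with median centring in place of loess. Leaving out Norm replicate 10, Norm replicate 12 or Hypox replicate 9 brought the adjusted p to 0.0201, 0.0261 and 0.0432.

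The lower *Dmd* value in Hypox was seen on each slide. The difference between the mean of the Hypox pair and the mean of the Norm pair was -0.16 on slide 1, -0.38 on slide 2, -0.36 on slide 3, -0.44 on slide 4, -0.69 on slide 5 and -0.29 on slide 6. On slides 2, 4 and 5 both Hypox mice lay below both Norm mice. A Norm mouse lay below both Hypox mice on slide 3 (-0.35) and between them on slide 6 (-0.25), and on slide 1, where none of the 4 arrays had the probe well above background, the values spanned only -0.25 to 0.074. An exact permutation test that exchanged mice within slides only, with 46656 arrangements, gave a two-sided p of 0.00484. It was run for this probe alone, which had the smallest limma p of the 10 member probes tested. Its p is not adjusted for that choice. With slide as a block the limma p was 0.00195 and the adjusted p 0.0865.

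**Figure D2:**
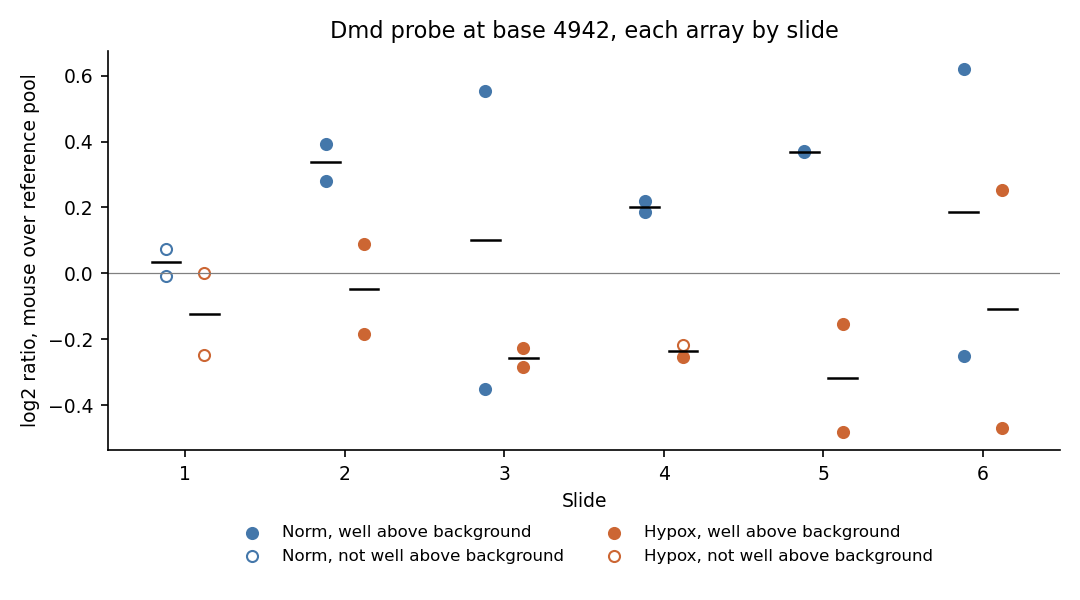
Log2 ratio of mouse over reference pool (vertical axis) for the Dmd probe at base 4942 on each of the 24 arrays, by slide (horizontal axis). Open points are arrays on which the probe was not well above background and black lines are the means of each pair, and on all 6 slides the Hypox mean lies below the Norm mean, by 0.16 on slide 1 and by 0.69 on slide 5.

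The signal behind this *Dmd* value was low. The mean Cy5 signal of the probe was 3.87 times the local background, and it was well above background on 10 of the 12 Norm arrays and 9 of the 12 Hypox arrays. The mean Cy5 brightness, before normalisation, had a median of 106 in Norm (36.8 to 284) and of 83.5 in Hypox (37.3 to 337). Without slides 1 and 4 the fold change was -0.43 (limma p 0.00800).

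Markers of other cells of the muscle also moved in these arrays. Of the peripheral nerve markers 5 of 6 were tested, and 3 of the 5 were lower in Hypox at an unadjusted p under 0.05, among them *Prx* by 0.28 and *Pmp22* by 0.41 on the log2 scale, where 13.7% of all genes tested passed that threshold in either direction. None of the 5 had an adjusted p under 0.05, and 1 was past the unadjusted threshold with processed signals or median centring and 2 in the deposited values. The shares of all probes past it were 13.8% with processed signals, 4.61% with median centring and 5.03% in the deposited values (limma). The mean over the nerve list was -0.39 to 0.43 across Norm mice and -0.67 to 0.099 across Hypox mice. All 5 nerve markers had a lower mean in Hypox, also with median centring and in the deposited values, and 4 of the 5 did with processed signals or array weights. Of the adipocyte markers 3 of 4 were tested, and 2 were lower at an unadjusted p under 0.05, *Adipoq* by 0.33 and *Cfd* by 0.56, with none past the adjusted threshold, while the mean over that list was -0.82 to 0.81 across Norm mice and -0.96 to -0.099 across Hypox mice. Of these 3, 1 was past the unadjusted threshold with median centring, with Cy5 alone or without slides 1 and 4. In these settings 4.61%, 9.22% and 12.7% of all probes tested passed it. In the deposited values 0 passed under limma or the methods' t-test. A higher mean in Hypox was seen for 1 of the 3 with processed signals, median centring, array weights and in the deposited values. The fibroblast and endothelial lists were mixed. The fibroblast marker *Dcn* was lower by 0.37 at an unadjusted p under 0.05, against *Col3a1* at 0.22, *Col1a1* at 0.11 and *Lum* at 0.092 (list median 0.092), and the endothelial marker *Cdh5* was higher by 0.38, against *Kdr* at -0.15 and *Tie1* at -0.0040 (list median -0.0040). The *Dcn* call was lost with median centring, with Cy5 alone and in the deposited values under limma or the methods' t-test, where 0 of the 5 fibroblast markers passed. The *Cdh5* call was lost with processed signals (list median -0.19) and under the methods' t-test on the deposited values, where 0 of the 3 endothelial markers passed. The smooth muscle, red blood cell and macrophage markers tested (4, 3 and 2) had none past the unadjusted threshold. However, 1 macrophage marker was higher past it with the replicate block and with array weights, where 14.2% and 20.4% of all probes tested passed. Of 5 lung markers only *Sftpc* passed the filter, and it was well above background on 0 Norm and 4 Hypox arrays. The part of these cell types in the *Dmd* value was not tested, and in RNA of whole muscle fewer cells of a type and less RNA per cell cannot be told apart.

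The other 4 *Dmd* probes were under the filter, and values for them come from a fit over all 55681 probes. The probe at base 450, 536 kb before the tested one on the chromosome, was well above background on 5 Norm and 5 Hypox arrays. Its log2 ratio ran from -0.51 to 0.80 across Norm mice (median 0.066) and -0.40 to 0.37 across Hypox mice (median -0.081), with a fold change of -0.20 (95% confidence interval -0.45 to 0.050, p 0.113). Its interval holds both 0 and the estimate of the probe at base 4942. In the authors' deposited values the difference of the probe at base 450 was -0.43 (limma p 0.0573). The probe at base 10335 was well above background on 0 Norm arrays and 1 Hypox array, so no fold change is given for it. A probe for a *Dmd* transcript listed only by its Ensembl identifier (from base 2085, chrX:82220987-82221046) was well above background on 2 Norm arrays and 0 Hypox arrays, so its values were mostly at background and no fold change is given (p 0.0123 in the fit over all probes, adjusted p 0.439). The fifth probe, at chrX:82451421-82451480, was not well above background on any array. The *Dmd* difference therefore rests on 1 probe, between those at bases 450 and 10335.

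*Utrn* encodes utrophin, which can take the place of dystrophin in the complex. Its probe at base 7910 was well above background on 6 Norm arrays and 1 Hypox array, at a mean Cy5 signal 1.70 times the background. The log2 ratio ran from -0.34 to 0.57 across Norm mice (median 0.0016) and -0.49 to 0.16 across Hypox mice (median -0.092). The fold change in the fit over all probes was -0.15 (95% confidence interval -0.35 to 0.042, p 0.119). The probe was well above background on only 1 Hypox array, so this fit cannot show whether *Utrn* differed. In the authors' deposited values the difference was -0.38 (limma p 0.0596). The second *Utrn* probe was not well above background on any array.

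*Dtna* encodes alpha-dystrobrevin, the syntrophin-binding partner of dystrophin. Of its 2 probes, 1 was not well above background on any array and the other was on 3 Norm and 2 Hypox arrays. The log2 ratio of that probe ran from -0.52 to 0.040 across Norm mice (median -0.20) and -0.55 to 0.16 across Hypox mice (median -0.31). Its fold change of -0.083 (95% confidence interval -0.23 to 0.062, p 0.249) was within the spread between mice. In the deposited values it was -0.19 (limma p 0.329). With so few arrays well above background, the size of this difference is uncertain.

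*Dag1* encodes both dystroglycan subunits, the receptor for laminin. Its probe (from base 4153, chr9:108108491-108108550, minus strand) was well above background on all 24 arrays, and its log2 ratio ran from -0.66 to 0.57 across Norm mice (median -0.078) and -0.87 to 0.16 across Hypox mice (median -0.14). The groups overlapped over most of their range. The fold change was -0.11 (SE 0.13, 95% confidence interval -0.38 to 0.16, p 0.411). It was -0.20 with processed signals, -0.034 with array weights and -0.047 without slides 1 and 4, and it turned to 0.0087 with median centring and to 0.066 in the deposited values. Without 1 mouse it ranged from -0.16 to -0.047, the latter without Norm replicate 5, and it was -0.054 without Hypox replicate 2 and -0.049 without Hypox replicate 12. None of these fits had a p under 0.05.

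Alpha-sarcoglycan is the sarcoglycan restricted to striated muscle. The brighter *Sgca* probe (from base 1645 of an Ensembl transcript, chr11:94824124-94824183, minus strand) had a log2 ratio of -0.39 to 0.19 in Norm (median -0.041) and of -0.51 to 0.12 in Hypox (median -0.29). Of the 12 Hypox mice 9 lay below the Norm median and 3 lay below every Norm mouse, and the Hypox mean was lower on 5 of 6 slides. The fold change of -0.16 (SE 0.084, 95% confidence interval -0.33 to 0.0088) had a p of 0.0620 and an adjusted p of 0.388. This call lies at the threshold, since leaving out 1 mouse brought the p under 0.05 in 7 of 24 fits. Those fits left out Norm replicates 3, 7, 9 or 10 or Hypox replicates 5, 7 or 12 (lowest p 0.0238). The limma p was also under 0.05 with array weights (0.0236), without a filter (0.0468) and with the replicate block (0.0481). The sign turned with median centring (0.096) and in the deposited values (0.15). The second probe (from base 1344 of NM_009161) lay below the pool on all 24 arrays, from -1.02 to -0.18 across Norm mice (median -0.56) and -1.19 to -0.15 across Hypox mice (median -0.47). The groups overlapped throughout on that probe, with a fold change of -0.022 (SE 0.12, p 0.860).

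Beta-sarcoglycan, the core of the sarcoglycan unit together with delta-sarcoglycan, was measured by 3 probes of NM_011890 on the minus strand of chromosome 5. The brightest (from base 1076, chr5:74026579-74026638) ran from -0.42 to 0.36 across Norm mice (median -0.070) and -0.20 to 0.28 across Hypox mice (median 0.058). All but 1 of the Hypox mice lay above the Norm median, and the Hypox mean was higher on 4 of 6 slides. Its fold change of 0.14 (SE 0.083, 95% confidence interval -0.033 to 0.31) had a p of 0.108 and an adjusted p of 0.479, and without Norm replicate 7 the p was 0.0338. The fold change ranged from 0.081 without slides 1 and 4 to 0.25 in the deposited values.

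The second *Sgcb* probe, which starts 65 bases further on (base 1141, chr5:74026514-74026573), ran from -0.30 to 0.51 across Norm mice (median -0.0067) and -0.39 to 0.16 across Hypox mice (median -0.070). Its fold change was -0.11 (SE 0.088, p 0.203), of the opposite sign to its neighbour, and ranged from -0.21 without slides 1 and 4 to -0.029 with processed signals. The difference between the fold changes of these 2 probes was -0.25 (permutation test, two-sided, p 0.0348, adjusted p 0.139 over 4 pairs), which did not pass the correction. Across the 24 arrays the log2 ratios of the neighbours had a Pearson's r of -0.025, given as a description. The other pairs of a brightest probe with a second tested probe of its gene were also near 0. Their r was 0.16 for *Sgca*, -0.036 for *Sgcb* at base 2728 and -0.092 for *Sgcd*. The third probe, at base 2728, spread most between mice, from -0.59 to 0.79 across Norm mice (median -0.29) and -1.11 to 0.41 across Hypox mice (median -0.21), with a fold change of -0.0072 (SE 0.14, p 0.960).

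Delta-sarcoglycan, the partner of beta-sarcoglycan, showed no detectable difference between the groups. The brighter *Sgcd* probe (from base 467 of NM_011891, chr11:46939058-46939117, minus strand) ran from -0.37 to 0.27 across Norm mice (median 0.026) and -0.25 to 0.34 across Hypox mice (median -0.023). The fold change was 0.016 (SE 0.076, 95% confidence interval -0.14 to 0.17, p 0.839). The second probe (base 653) gave -0.034 (SE 0.071, 95% confidence interval -0.18 to 0.11, p 0.634), and the third was not well above background on any array. The second probe was at -0.22 with processed signals (p 0.398), -0.19 with median centring (p 0.343) and -0.11 in the deposited values (p 0.466). Both tested probes had signals little above the filter, at 2.61 and 2.02 times the background.

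Sarcospan is a small membrane protein that binds the sarcoglycans. The *Sspn* probe (from base 4325, chr6:145913663-145913722, plus strand) was well above background on all 24 arrays and ran from -0.29 to 0.33 across Norm mice (median 0.12) and -0.13 to 0.41 across Hypox mice (median 0.21). In Hypox, 3 mice lay above every Norm mouse, and the Hypox mean was higher on 5 of 6 slides. The fold change of 0.095 (SE 0.072, 95% confidence interval -0.054 to 0.24, p 0.203) was within the spread between mice. It was 0.23 with median centring (p 0.326) and 0.30 in the deposited values (p 0.285). In the other direction, it was 0.062 with array weights (p 0.360) and 0.059 without Norm replicate 4 (p 0.393).

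**Figure D3:**
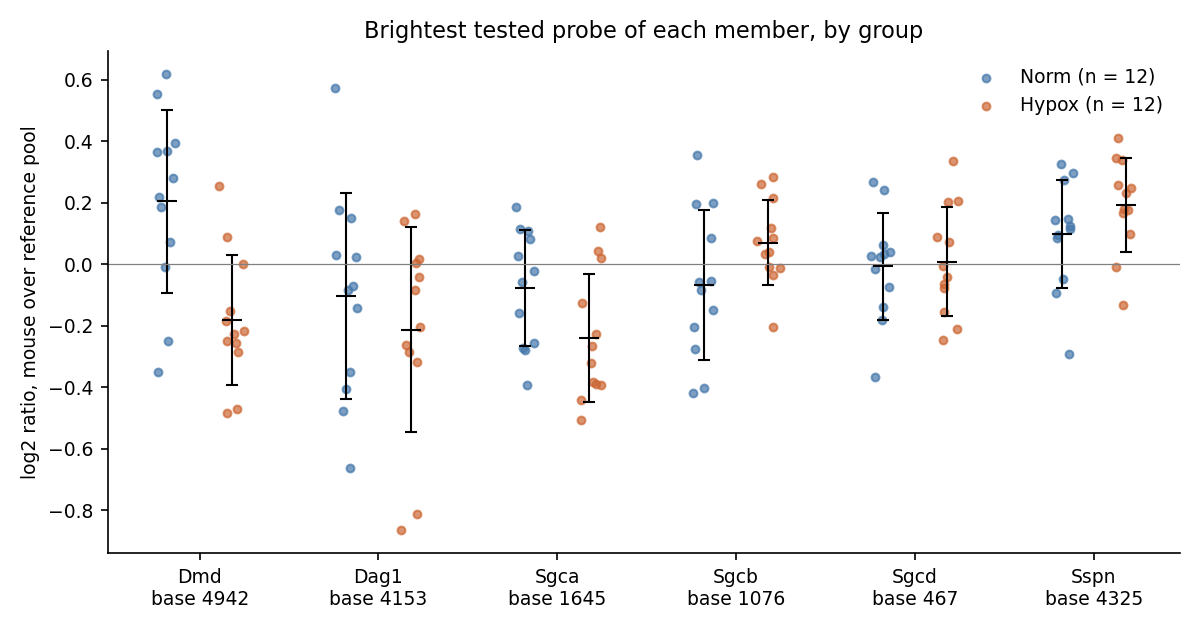
Log2 ratio of mouse over reference pool (vertical axis) for the brightest tested probe of each of the 6 members that passed the filter, with 1 point per mouse (n = 12 per group) and black bars for mean ± SD. The Dmd mean is 0.20 in Norm and -0.18 in Hypox, and the points of the groups overlap for all 6 genes.

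Whether the members varied together over mice was asked by relating the tested *Dmd* probe to the brightest probe of each of the other 5 genes. Over 24 arrays Pearson's r was 0.27 with *Dag1*, 0.24 with *Sgcd*, 0.10 with *Sgca*, -0.16 with *Sgcb* and -0.13 with *Sspn* (permutation p 0.198, 0.254, 0.640, 0.459 and 0.534, adjusted p 0.635 to 0.640 over 5 relations). Within the groups, given as a description, r in Norm and in Hypox was 0.31 and 0.098 with *Dag1*, 0.46 and 0.20 with *Sgcd*, 0.030 and -0.49 with *Sgca*, 0.091 and 0.028 with *Sgcb*, and 0.31 and -0.35 with *Sspn*. Spearman's rho over all arrays ran from -0.18 to 0.29, with an adjusted permutation p of 0.631 to 0.897. Without the 2 arrays farthest from the *Dmd* median, r ran from -0.34 to 0.18, and with slide means removed it ran from -0.18 to 0.29 (adjusted p 0.514). None of the 5 relations passed the test in these settings, but with median centring in place of loess r ran from -0.64 to 0.68 and 4 of the 5 had a permutation p under 0.05. The arrays share slides and a reference pool, and these relations depend on how the arrays were normalised. Probes of the same gene also had r of only -0.092 to 0.16 over the arrays. An r near 0 between members therefore cannot show that their mRNA levels varied apart.

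Genes with a pattern like *Dmd* were ranked by Pearson's r of their brightest probe with the *Dmd* probe over 24 arrays, after group and slide means were removed, as a description among 11661 genes. The named genes among the 5 most alike were *Gpcpd1*, a glycerophosphodiesterase, with r = 0.83, and *Gm17821*, with r = 0.82. The other 3 were transcripts listed on the array without a gene symbol, at r = 0.84, 0.81 and 0.78. Among the members of the complex the closest was *Sgcd*, at r = 0.37 and rank 1062, followed by *Dag1* (0.24, rank 2236), *Sgcb* (0.10, rank 3996), *Sspn* (0.036, rank 5049) and *Sgca* (-0.18, rank 8473).

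The surroundings of the complex were described by 5 lists, with the brightest tested probe for each gene. Of all 11823 genes tested in this way, 13.7% had an unadjusted p under 0.05 and 0.93% had an adjusted p under 0.05, and the median fold change was 0.023. Over the 5 lists 35 genes were tested, of which 2 were higher and 2 lower at an unadjusted p under 0.05 and 1 (*Synm*) at an adjusted p under 0.05. The 4 genes are named below with their values.

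Inside the fibre, dystrophin and dystrobrevin bind intermediate filament and ankyrin proteins that carry force to the sarcomeres. Of 8 such linkers (*Plec*, *Synm*, *Ank2*, *Ank3*, *Krt8*, *Krt19*, *Actg1*, *Des*) 5 were tested, and 1 was lower, with a list median of -0.16. That median ran from -0.29 to -0.042 without 1 mouse. It was -0.037 with processed signals, and it turned to 0.16 with median centring and to 0.22 in the deposited values. *Synm* encodes synemin, an intermediate filament protein that binds dystrophin, dystrobrevin and desmin. Its brightest probe (from base 5224 of NM_201639, chr7:74877629-74877688) ran from -0.19 to 1.08 across Norm mice (median 0.33) and -0.48 to 0.18 across Hypox mice (median -0.047), so that all 12 Hypox mice lay below the Norm median. The *Synm* level was 1.37-fold lower in Hypox (fold change -0.45, SE 0.10, limma p 0.000132, adjusted p 0.0292) and lower on 6 of 6 slides, by 0.21 to 0.84. All 5 tested *Synm* probes had a lower mean in Hypox, from -0.45 to -0.15, and 2 of them passed the unadjusted threshold (p 0.000132 and 0.0126). The adjusted p of *Synm* ranged from 0.0085 to 0.0592 when 1 mouse was left out. With median centring the *Synm* fold change was -0.19 (p 0.532) and in the deposited values -0.13 (p 0.704), so neither call held there. The adjusted call was also lost with Cy5 alone (adjusted p 0.0796), without a filter (0.0643), with the replicate block (0.0509) and without slides 1 and 4 (0.175).

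Of the remaining linkers, *Plec* (plectin) had a fold change of -0.16 (SE 0.23), *Actg1* (cytoplasmic gamma-actin) of -0.18 (SE 0.15), *Des* (desmin) of 0.083 (SE 0.13) and *Ank2* (ankyrin-B) of 0.089 (SE 0.099). None of these 4 had an unadjusted p under 0.05. With Cy5 alone 2 of the 5 linkers were lower past that threshold, where 9.22% of all probes tested passed it. With array weights 1 was lower and 1 higher, where 20.4% of all probes tested passed. Under median centring and in the deposited values 4 of the 5 linkers had a higher mean in Hypox, against 2 of 5 here.

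Of 12 other proteins of the complex, 6 were tested, with a median of -0.025. Only *Cav3* passed the unadjusted threshold. *Cav3* encodes caveolin-3, the muscle caveolin that binds beta-dystroglycan. It ran from -0.081 to 0.89 across Norm mice (median 0.49) and -0.067 to 2.35 across Hypox mice (median 0.81), with a fold change of 0.38 (SE 0.18, limma p 0.0412, adjusted p 0.334) or a level 1.30-fold higher. The *Cav3* mean was higher on 5 of 6 slides, and its p was under 0.05 in 12 of the 24 fits without 1 mouse (0.0104 to 0.0750). Its fold change was 0.24 without Hypox replicate 2 (p 0.0708) and 0.16 with processed signals (p 0.0491), and the methods' t-test gave a p of 0.0576. With median centring and in the deposited values *Cav3* was at 0.59 (p 0.0550) and 0.67 (p 0.0552). Of the others, *Sgce* (epsilon-sarcoglycan) had a fold change of -0.012 (SE 0.065), *Sntb2* (beta-2-syntrophin) of -0.038 (SE 0.075) and *Nos1* (neuronal nitric oxide synthase) of -0.011 (SE 0.070), all within the spread between mice.

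Dystroglycan binds laminin only after its sugar chains are built by a set of enzymes in the endoplasmic reticulum and Golgi. Of 18 genes of this pathway 10 were tested, and *Gmppb*, which makes the mannose donor GDP-mannose, was the 1 that passed the unadjusted threshold. *Gmppb* ran from -0.28 to 0.090 across Norm mice (median -0.0070) and -0.046 to 0.75 across Hypox mice (median 0.095), with a fold change of 0.21 (SE 0.079, limma p 0.0149, adjusted p 0.232), and each of the 6 slides had a higher Hypox mean. Its signal was near the filter, at 2.41 times the background and well above it on 7 Norm and 9 Hypox arrays. The *Gmppb* fold change was 0.035 with median centring (p 0.855), 0.18 in the deposited values (p 0.233), 0.17 with Cy5 alone (p 0.0756) and 0.51 with processed signals (p 0.0149). All 10 genes tested had a higher mean in Hypox (0.0076 to 0.21, median 0.063), where 56.6% of all genes tested did. This count was 10 in the deposited values as well, but 9 with median centring, 8 with Cy5 alone or without slides 1 and 4, and 7 with processed signals or array weights.

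Outside the fibre, 7 matrix ligands were all tested (*Lama2*, *Lamb1*, *Lamb2*, *Lamc1*, *Agrn*, *Hspg2*, *Bgn*) and 0 had an unadjusted p under 0.05, under limma. *Lama2*, the laminin chain of the muscle basement membrane, had a fold change of -0.025 (SE 0.079), and *Agrn* (agrin) of 0.17 (SE 0.15). Of 8 membrane repair genes 7 were tested, and *Anxa6* (annexin A6, which gathers at membrane wounds) was the 1 past the unadjusted threshold. *Anxa6* ran from -1.17 to -0.057 across Norm mice (median -0.37) and -1.13 to -0.30 across Hypox mice (median -0.63), with a fold change of -0.26 (SE 0.11, limma p 0.0337, adjusted p 0.310). Its sign turned in the deposited values (0.077), its p was under 0.05 in 16 of the 24 fits without 1 mouse, and it was 0.971 with median centring, 0.0639 with Cy5 alone and 0.185 without slides 1 and 4. *Dysf* (dysferlin) had a fold change of -0.12 (SE 0.12).

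**Figure D4:**
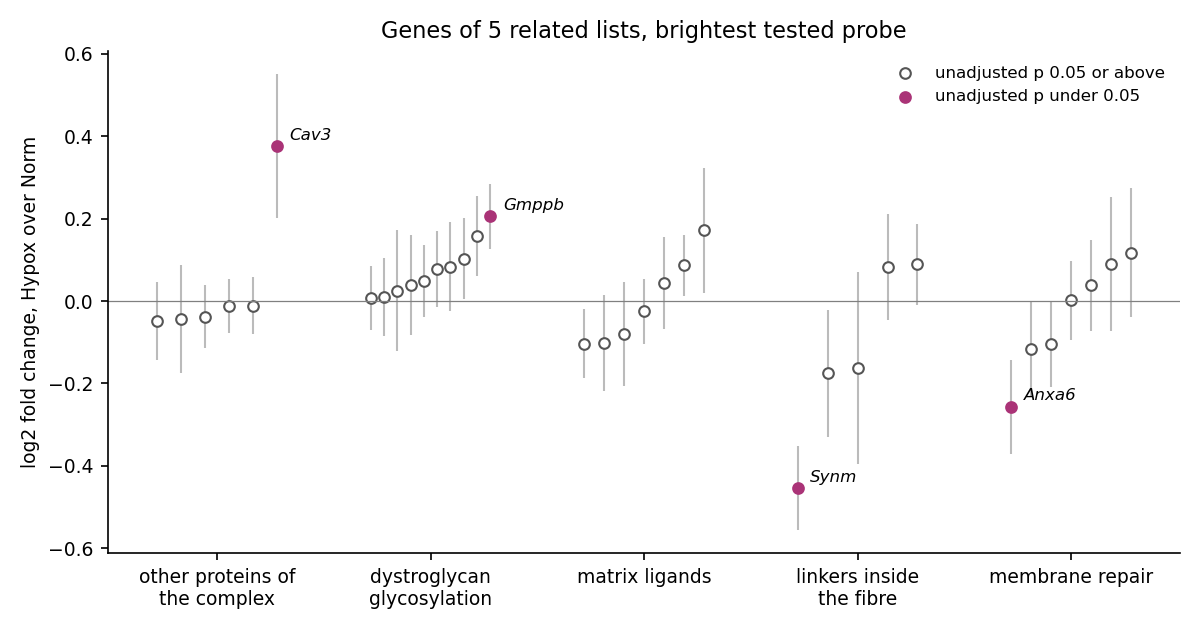
Log2 fold change (Hypox over Norm, vertical axis) of the 35 tested genes of the 5 related lists, with bars of 1 standard error and the genes ordered by fold change within each list. Filled points are the 4 genes with an unadjusted p under 0.05, of which Synm at -0.45 also had an adjusted p under 0.05.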

How the data were processed

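Agilent Feature Extraction 10.7.3.1 was used by the authors to read each array, and the deposited scanner files hold intensity values per spot for Cy5 (a mouse) and Cy3 (the pool), with probe positions on mm9. A second deposited table holds the authors' log2 expression values for 19360 probes after their own normalisation, whose scale and centring are not stated. Here the background was corrected with normexp (offset 50), control and outlier-flagged spots (7260 flagged) were left out, ratios were normalised by loess within arrays, and repeated spots were averaged by probe. Tests were run on 24 arrays, for probes with a mean Cy5 signal above 2 times the local background and no more than 4 arrays missing, with limma 3.58.1 (R 4.3.3), with no block, and P-values were adjusted by Benjamini-Hochberg over 14503 probes. The procedure was tested on simulated data, and no values of that test are given here. Permutation tests used 100000 resamples. Intervals are 95% confidence intervals, and the number of arrays limits the precision. "Well above background" is the scanner software's flag.

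Gene names are those of the array, and 13 of 19 member probes matched the same symbol by RefSeq accession. Groups came from the sample titles. Every member probe was accounted for, values were given for the brightest tested probe of each member and for those past the unadjusted threshold, and of the lists the genes past that threshold were named. The members and lists were chosen with earlier results of these data known. In the glycosylation list, 16 of 18 genes were on the array under the names searched. Alternatives tried were the processed signals, median centring, other filters, Cy5 alone, the methods' t-test, the deposited values, slide and replicate blocks, array weights and leaving out each array. Leaving out slides 1 and 4 was chosen after seeing the data. Values of some list genes are not reported here.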

Additional observations from a re-analysis of the deposited data

How the results depend on the processing

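The *Dmd* difference kept its sign and an unadjusted p under 0.05 in all 13 alternative settings (-0.66 to -0.36) and in all 24 fits without 1 mouse (-0.44 to -0.35). The count of member probes past the unadjusted threshold was 3 without a filter (*Dmd* at bases 4942 and 2085 and *Sgca* at base 1645), where 8.06% of 55681 probes passed. It was 2 with array weights, where 20.4% of all probes tested passed. Without 1 mouse it was 1 to 3, where 11.8% to 15.6% of all probes tested passed. It was 3 without Norm replicate 7, where 12.2% passed. The count past the adjusted threshold was 1 (*Dmd*) with array weights and 0 to 1 without 1 mouse. List genes past the unadjusted threshold were 0 with median centring, where only 4.61% of all probes tested passed. They were 0 in the deposited values under both limma (5.03% of all probes passed) and the methods' t-test (5.38%). Without 1 mouse they were 2 to 5, where 11.8% to 15.6% of all probes tested passed.

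Over all probes tested, 2005 passed the unadjusted and 135 the adjusted threshold. These counts were 1999 and 247 with processed signals, 669 and 1 with median centring, 1337 and 68 with Cy5 alone, 4487 and 45 without a filter, 2272 and 174 with slide as a block, 2955 and 672 with array weights, 1837 and 2 without slides 1 and 4, and 974 and 1 of 19360 in the deposited values. The methods' t-test gave 1989 and 85, and on the deposited values 1042 and 0, the 0 standing beside 1 from limma. The share of higher calls was 53.6% and fell to 43.1% in the deposited values (40.9% by the methods' t-test).

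With the replicate block, 2059 (14.2%) and 50 probes passed. The count of member probes past the unadjusted threshold was 2 (with *Sgca* at base 1645, limma p 0.0481), and the *Dmd* p was 0.00135. Same-numbered Norm and Hypox arrays did not deviate together (r from -0.20 to 0.41 over 12 pairs, 3 above 0.1), and 2 of 12 Norm arrays correlated best with their own number, so the numbers were not taken as pairs.

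Signs of small differences turned. In the deposited values, under both tests, the fold change was 0.066 for *Dag1*, 0.24 for *Sgca* at base 1344, 0.15 for *Sgca* at base 1645, 0.057 for *Sgcb* at base 2728, -0.0016 for *Sgcd* at base 467 and 0.077 for *Anxa6*. With median centring it was 0.0087 for *Dag1*, 0.14 and 0.096 for the *Sgca* probes and -0.081 for *Sgcd* at base 467. *Sgcb* at base 2728 was 0.0056 with processed signals, 0.028 with Cy5 alone and 0.15 with array weights. *Sgcd* at base 467 was -0.035 with Cy5 alone, -0.014 with array weights and -0.047 without slides 1 and 4, and *Sgca* at base 1344 was 0.063 with array weights and 0.091 without slides 1 and 4. Without 1 mouse, *Sgca* at base 1344 ranged from -0.063 to 0.031, *Sgcb* at base 2728 from -0.063 to 0.083 and *Sgcd* at base 467 from -0.017 to 0.041. The cause was not tested.

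With median centring, *Dmd* had r = -0.29 with *Dag1*, -0.61 with *Sgca* (p 0.00126), -0.48 with *Sgcb* (p 0.0172), 0.68 with *Sgcd* (p 0.000250) and -0.64 with *Sspn* (p 0.000580), by permutation and unadjusted. With processed signals r was 0.24 with *Sgcb*, -0.093 with *Sgcd* and 0.046 with *Sspn*. With slide means removed the p of the *Sgcb* probe pair was 0.0515. Relations of *Dmd* with *Utrn* and *Dtna* were not run, since no probe of either passed the filter.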

Other observations

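In the authors' deposited log2 values, 13 of the 19 member probes were listed. The *Dmd* probe at base 4942 had a Norm mean of 6.84 ± 0.35 and a Hypox mean of 6.42 ± 0.25 (SD, n = 12 each), a difference of -0.42 (limma p 0.00347, adjusted p 0.800). The *Dmd* probe at base 450 was 5.94 ± 0.61 in Norm and 5.51 ± 0.50 in Hypox, a difference of -0.43 (limma p 0.0573). The *Utrn* probe at base 7910 was 5.77 ± 0.46 in Norm and 5.39 ± 0.51 in Hypox, a difference of -0.38 (limma p 0.0596). Neither of the last 2 passed the unadjusted threshold, and all 3 had an adjusted p of 0.800.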
